A study of Mus musculus with 74 samples.

Results

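The genes of oxidative phosphorylation encode the respiratory chain and the ATP synthase of the inner mitochondrial membrane, together with factors that assemble complexes I and II. They were taken as the probes whose gene symbol starts with Nduf, Uqcr, Sdh followed by a to d, Cox4 to Cox8, or Atp5, with the first probe of each symbol used. This gave 79 of the 13409 gene symbols on the array (83 of 16463 probes). By name, 69 are subunits, of which 30 belong to complex I, 4 to complex II, 5 to complex III, 16 to complex IV and 14 to the ATP synthase. A further 9 are assembly factors, 7 of complex I and 2 of complex II, and 1 symbol, Ndufs5-ps, is that of a pseudogene. All of them are nuclear genes, and all 79 matched a RefSeq gene by Entrez ID.

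The 74 mouse 2-colour arrays fall into 11 groups. In 7 groups, cells of the DO11.10 T cell hybridoma, a single cell line, were infected with a retrovirus and set against untreated cells of the same line on each array. The viruses encoded MEF2D-VP16, a MEF2 transcription factor fused to the VP16 activation domain (4 arrays), Nur77, an orphan nuclear receptor (4 arrays), HDAC7-VP16, the class IIa histone deacetylase HDAC7 fused to the same domain (10 arrays), or nothing (the empty MSCV virus, in a set of 4 and a set of 12 arrays). Cells with an HDAC7 mutant labelled HDAC7 DP and cells with the empty virus were also treated with PMA and ionomycin for 2.5 h, which mimics T cell receptor signalling (8 arrays each). In the other 4 groups, of 6 arrays each, thymocytes lacking MHC (mhc -/-) were set against those of mice transgenic for the DO11.10 T cell receptor, and DO11.10 thymocytes from mice given antigenic peptide 3 h, 6 h or 12 h earlier were set against uninjected DO11.10 thymocytes. The labels do not say what DP stands for, nor the age or number of the mice or whether arrays come from separate cultures or animals. The p-values therefore describe variation among arrays, part of which may be technical.

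Complex I (NADH dehydrogenase), complex II (succinate dehydrogenase), complex III and complex IV (cytochrome c oxidase) pass electrons to oxygen, and complexes I, III and IV pump the protons that drive the ATP synthase. Several complex IV subunits come in pairs, a general form and a form found mainly in heart and skeletal muscle, such as Cox6a1 and Cox6a2, Cox7a2 and Cox7a1, or Cox8a and Cox8b. In T lymphocytes, glycolysis and respiration are both known to increase when the cells are activated to divide.

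All values are log2 ratios of the 2 channels of an array after centring each array on its median, so they give changes and no levels, and the cell types could not be checked against the level of a marker. A gene is called higher or lower where the limma adjusted p over all 16463 probes was under 0.05. Ratios are taken as infected, stimulated or injected cells over untreated ones, and mhc -/- over DO11.10 thymocytes. This direction is likely rather than stated: Nr4a1, which encodes Nur77, averaged 4.50 on the Nur77 arrays, Egr2, an early response gene, averaged 3.97 after PMA and ionomycin, and B2m, the light chain of class I MHC, averaged -3.26 in mhc -/- thymocytes. The ratios of the mhc -/- arrays were turned from the deposited sign to give that direction. Within the 12-array empty virus set, the direction of the 3rd and the 9th array is not settled, since arrays of 1 dye orientation reached a correlation of -0.58 over all probes. With the sign of those 2 arrays turned, 0 members were called in that set, 2 with HDAC7-VP16 and 7 after stimulation. Arrays of opposite dye orientation had a median correlation of -0.40 in that set, -0.24 in the 4-array empty virus set, which is the control of MEF2D-VP16 and Nur77, and -0.48 with HDAC7-VP16. In the other 8 groups it ran from 0.15 to 0.85, highest in mhc -/- thymocytes.

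Of the 79 genes, 32 were called in none of the 11 comparisons, 34 in 1 and 13 in 2 or more. Most calls came from mhc -/- thymocytes, where 44 genes were called, and 31 of the 79 were called there and in no other comparison. Of all probes 15.8% were called higher and 20.5% lower there, the highest shares of the 11 comparisons. In all hybridoma comparisons together 10 genes were called. Of all probes, 0.522% to 6.4% were called higher and 1.12% to 6.43% lower in single hybridoma comparisons. The share of all probes called over several comparisons together was not counted, so these counts over comparisons have no value for the whole array beside them. The assembly factor Ndufaf4 was called in 6 comparisons, the complex I subunit Ndufv3 in 5 and the complex III subunit Uqcrb in 4, each of them higher in some and lower in others.

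**Figure D1:**
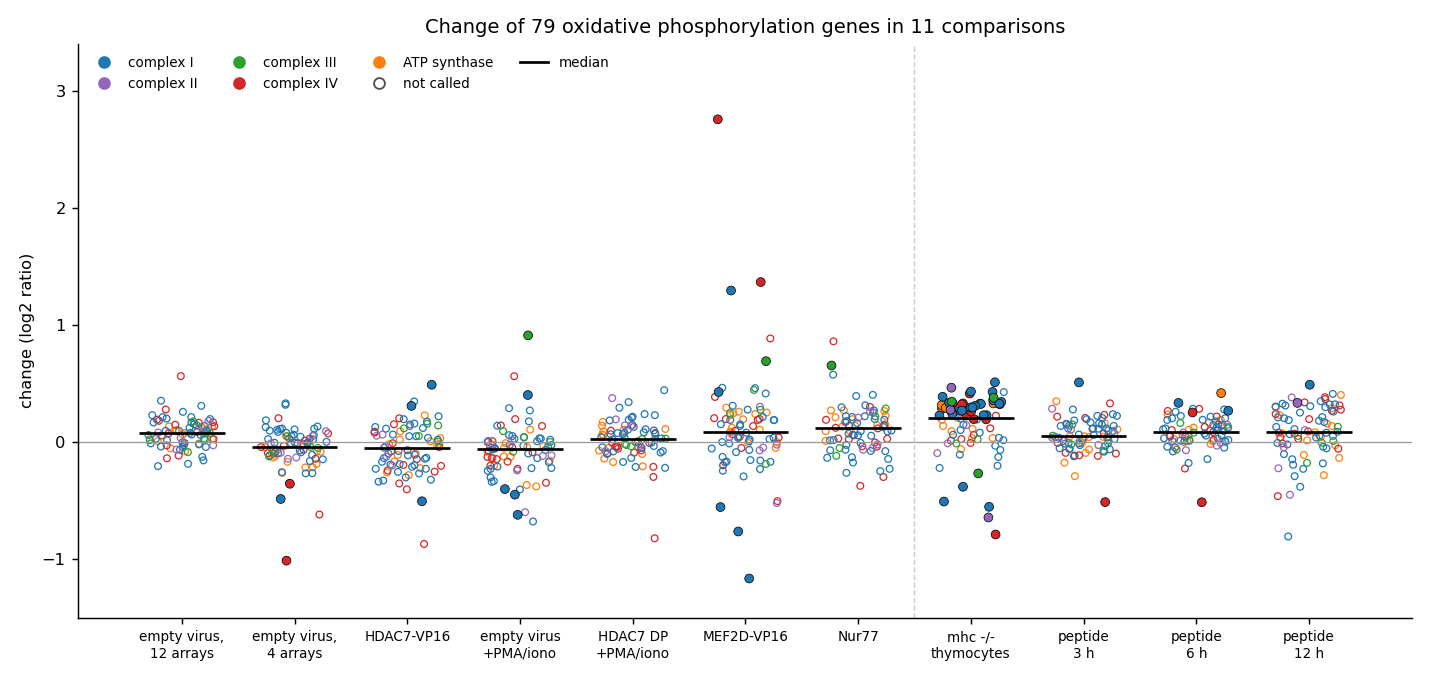
Each point is 1 of the 79 genes in 1 of 11 comparisons, and the vertical axis gives its change as a log2 ratio. Filled points were called (adjusted p under 0.05), colours give the complex, black bars mark the medians, and the dashed line divides hybridoma cells from thymocytes. The bar lies at 0.21 in mhc -/- thymocytes, while MEF2D-VP16 holds the widest spread, from -1.17 to 2.76.

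MEF2D-VP16 changed a few members by large amounts rather than the complexes as wholes. Against the empty virus of the 4-array set, Cox6a2 and Cox7a1, the muscle forms of 2 complex IV subunits, rose 6.76-fold and 2.58-fold, and Ndufv3, an accessory subunit of the NADH-binding end of complex I, rose 2.45-fold. Ndufaf4, an assembly factor of complex I, fell 2.24-fold. In all, 5 members were called higher and 3 lower, while 6.4% of all probes were higher and 6.16% lower, and the median change of the members was 0.09 against a median of -0.00 over all probes.

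On the 4 MEF2D-VP16 arrays the log2 ratio of Cox6a2 was 2.29, 1.80, 1.23 and 1.65, against -0.84, -1.18, -1.08 and -0.95 on the empty virus arrays. The groups did not overlap, and the fitted change was 2.76 (SE 0.21, limma adjusted p = 7.07e-05). The empty virus set was itself below untreated cells for this gene (-1.01), while in the 12-array empty virus set it ran from -0.28 to 0.80 with a median of 0.33. Against untreated cells the change with MEF2D-VP16 was 1.74 (limma adjusted p = 0.00122), and against all 16 empty virus arrays it was 1.79. With these controls 6 members were higher and 3 lower (8.92% and 9.37% of all probes), and 4 higher and 1 lower (5.28% and 4.69%).

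Cox7a1 was at 0.61, 1.02, 1.04 and 1.37 with MEF2D-VP16, against -0.02, 0.03, -0.73 and -0.70 with the empty virus. The groups were again apart, with a change of 1.37 (SE 0.22, limma adjusted p = 0.00354), but the call was lost when all 16 empty virus arrays served as control. In the 12-array set Cox7a1 ran from -1.48 to 2.58. Ndufv3 was at 0.88, 0.83, 0.67 and 0.86 with MEF2D-VP16, against -0.56, -0.52, -0.50 and -0.37 with the empty virus. Its change was 1.29 (SE 0.11, limma adjusted p = 0.000121), with no overlap between the groups.

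The general forms of the same complex IV subunits were not called. Cox6a1 changed by 0.20 (SE 0.12) and Cox7a2 by 0.89 (SE 0.42, limma adjusted p = 0.234). For Cox7a2, 1 empty virus array lay at -2.38, while the others of that set lay between -0.30 and 0.26 and the MEF2D-VP16 arrays between 0.09 and 0.65. Cox4i1 changed by 0.10, Cox4i2, its lung form, by -0.50, Cox8a by 0.20 and the muscle form Cox8b by 0.07, none of them called.

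Uqcrb, an accessory subunit of complex III, was at 0.80, 0.57, 0.54 and 0.37 with MEF2D-VP16, against -0.37, -0.53, 0.37 and 0.04 with the empty virus. Its change of 0.69 (SE 0.19, limma adjusted p = 0.0403) lost its call in 6 of the 8 fits that left out 1 array. By the first probe of each symbol, no subunit was called lower. The second probe of Uqcrq, of complex III, was called lower (-0.37, limma adjusted p = 0.0489), with the first at -0.19 and not called.

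The 3 members called lower with MEF2D-VP16, beside 6.16% of all probes lower, were all complex I assembly factors. Ndufaf4 was at -0.95, -0.77, -0.69 and -0.94, against 0.39, 0.14, 0.37 and 0.43 with the empty virus, a change of -1.17 (SE 0.12, limma adjusted p = 0.000389) between groups far apart. Ndufaf2 changed by -0.76 (adjusted p = 0.0139) and Ndufaf6 by -0.56 (adjusted p = 0.0154), without overlap between the groups. Another assembly factor, Ndufaf1, was higher by 0.43 with overlapping groups, and lost its call in 7 of the 8 fits that left out 1 array. The Ndufaf2 call was lost without the first empty virus array (adjusted p = 0.0503), and that of Ndufaf6 in 3 of the 8 fits, at adjusted p up to 0.0583. Against all 16 empty virus arrays Ndufaf4 (-0.92) was still called. Ndufaf2 (-0.54, limma adjusted p = 0.0748), Ndufaf6 (-0.41, limma adjusted p = 0.142) and Ndufaf1 (0.23, limma adjusted p = 0.506) were not.

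Some other genes of mitochondria were lower with MEF2D-VP16, and some of glycolysis were higher. Of 70 measured mitochondrial ribosomal proteins, 17 were called lower and the others were not called, with a list median of -0.33. Of 18 genes of protein import and folding 6 were lower, among them Timm8a1 (-1.10), a chaperone of the intermembrane space. Of 13 regulators of mitochondrial biogenesis 3 were lower: the coactivator Pprc1 (-1.45) and the transcription factor genes Nrf1 (-0.64) and Gabpb1 (-0.60). Of 13 glycolysis genes 7 were higher, led by the glucose transporter Slc2a1 (1.78) and the phosphofructokinases Pfkm (1.45) and Pfkl (1.35). Cox10, which builds the haem of complex IV, changed by -0.98 and cytochrome c (Cycs) by -0.96.

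For several of these genes the empty virus control was itself away from untreated cells. In that set Pfkl was at -1.01, Slc2a1 at -1.004 and Pfkm at -0.39, all called lower, and Cycs at 0.64 and Cox10 at 0.40, both called higher. Against untreated cells 5 glycolysis genes were higher with MEF2D-VP16, with Pfkm at 1.06 and Slc2a1 at 0.77, while Pfkl was at 0.33 (limma adjusted p = 0.0884) and no longer called. Cox10 was at -0.58 and Cycs at -0.31, both still called. Against all 16 empty virus arrays 2 glycolysis genes were higher, Pfkm (1.09) being one, and Slc2a1 (0.79, limma adjusted p = 0.173), Pfkl (0.53, limma adjusted p = 0.277) and Cycs (-0.54, limma adjusted p = 0.351) were not called. Of the 3 lower biogenesis regulators, Gabpb1 lost its call against untreated cells (-0.24), and Nrf1 (-0.41) and Gabpb1 (-0.34) lost theirs against all 16 arrays, where Pprc1 was at -1.12. Of the mitochondrial ribosomal proteins 27 were lower and 1 higher against untreated cells, and 12 lower and 1 higher against all 16 arrays. Of the import and folding genes 6 and 4 were lower.

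Among 28 measured genes of striated muscle, a list written after the values were seen, 2 were higher (Eno3, the muscle enolase, 3.86, and Myl1, a myosin light chain, 0.77) and 2 lower (Tnni1 -1.59, Ckm -0.87), with a median of 0.04.

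**Figure D2:**
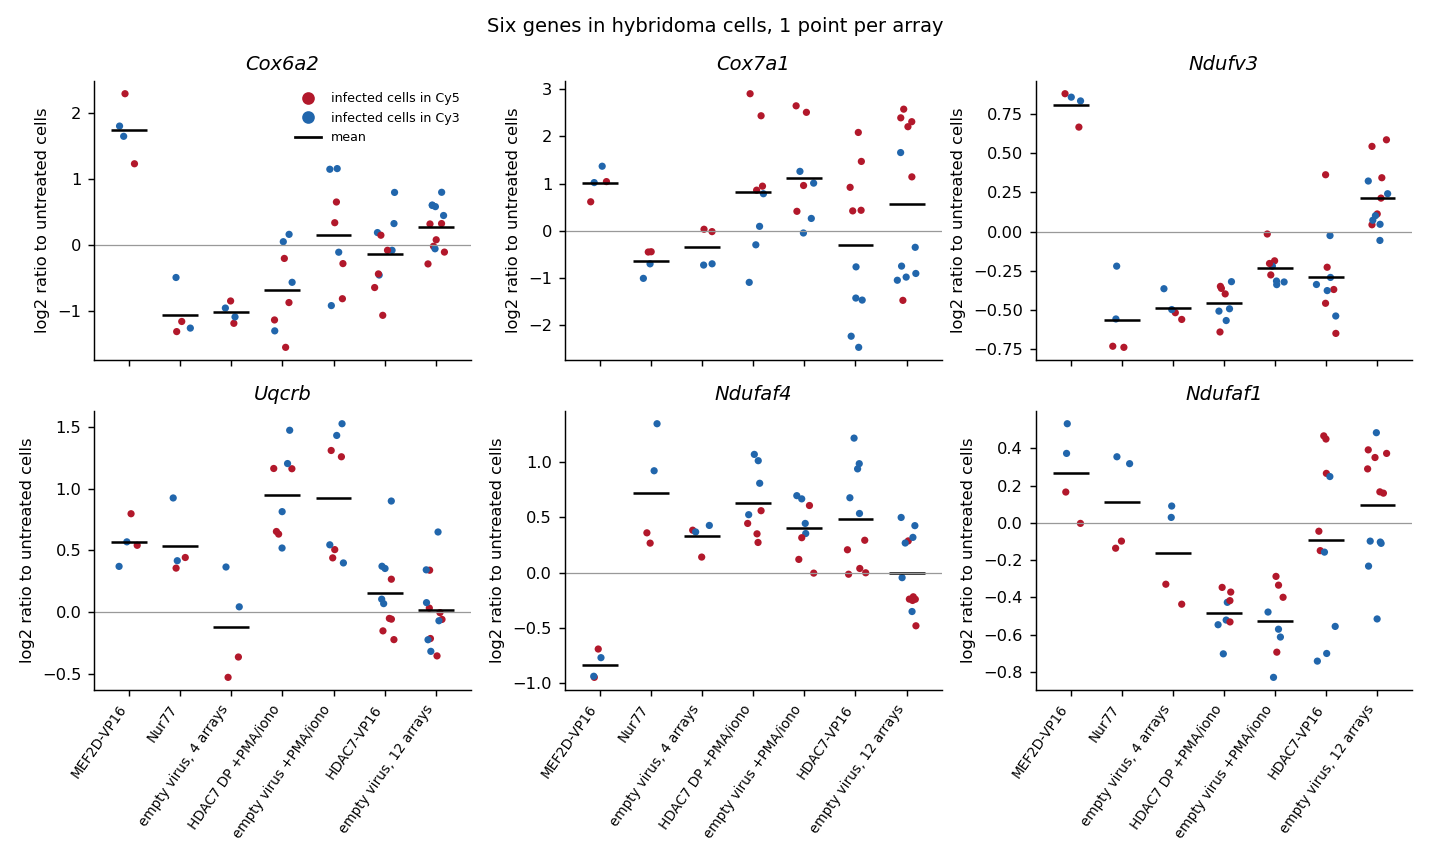
Each point is 1 array, the vertical axis is the log2 ratio to untreated hybridoma cells, and bars are group means. Colours give the dye of the infected cells. Cox6a2 lies between 1.23 and 2.29 with MEF2D-VP16, above all arrays of both empty virus sets, and Cox7a1 spreads with the dye in the 12-array set.

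The regulators that control these genes in other cells are known to bind short motifs near their start sites, so the promoters of members that moved with MEF2D-VP16 are shown beside those of the general forms. The windows hold 250 bases before and 50 after the start site (RefSeq, GRCm38.p6), 5′ to 3′ on the strand of the gene. Capitals mark the motifs searched on both strands: the NRF1 motif, a shorter form of it (TGCGCA) that can overlap it, the ETS motif bound by GABP (CCGGAAG), the YY1 motif and the MEF2 motif. MEF2 was added after the values were seen. Cox7a1 is at chr7:30183921-30184220 (plus strand), Ndufv3 at chr17:31519865-31520164 (plus), Ndufaf4 at chr4:24897833-24898132 (plus), Cox7a2 at chr9:79759804-79760103 (minus) and Cox6a1 at chr5:115348909-115349208 (minus).
Cox7a1: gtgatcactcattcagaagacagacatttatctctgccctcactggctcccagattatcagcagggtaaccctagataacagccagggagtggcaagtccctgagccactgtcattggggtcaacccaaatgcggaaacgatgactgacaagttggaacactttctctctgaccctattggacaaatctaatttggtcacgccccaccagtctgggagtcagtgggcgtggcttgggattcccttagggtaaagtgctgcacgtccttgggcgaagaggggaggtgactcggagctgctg
Ndufv3: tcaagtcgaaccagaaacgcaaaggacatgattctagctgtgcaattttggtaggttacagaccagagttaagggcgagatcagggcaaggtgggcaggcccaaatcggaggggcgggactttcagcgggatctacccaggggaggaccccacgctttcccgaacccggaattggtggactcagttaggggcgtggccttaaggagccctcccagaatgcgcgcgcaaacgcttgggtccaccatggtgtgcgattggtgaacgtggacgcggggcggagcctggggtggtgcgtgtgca
Ndufaf4: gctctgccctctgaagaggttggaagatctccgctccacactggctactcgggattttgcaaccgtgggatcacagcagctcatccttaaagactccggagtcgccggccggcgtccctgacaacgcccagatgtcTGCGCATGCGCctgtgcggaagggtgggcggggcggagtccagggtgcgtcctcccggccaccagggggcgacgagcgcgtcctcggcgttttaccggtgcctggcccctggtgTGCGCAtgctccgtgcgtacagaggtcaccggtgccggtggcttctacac
Cox7a2: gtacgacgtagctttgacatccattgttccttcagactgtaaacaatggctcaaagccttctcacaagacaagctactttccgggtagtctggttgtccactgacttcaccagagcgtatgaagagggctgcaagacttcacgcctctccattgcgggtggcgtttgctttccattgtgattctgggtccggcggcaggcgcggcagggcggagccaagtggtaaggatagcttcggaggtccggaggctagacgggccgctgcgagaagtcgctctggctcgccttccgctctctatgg
Cox6a1: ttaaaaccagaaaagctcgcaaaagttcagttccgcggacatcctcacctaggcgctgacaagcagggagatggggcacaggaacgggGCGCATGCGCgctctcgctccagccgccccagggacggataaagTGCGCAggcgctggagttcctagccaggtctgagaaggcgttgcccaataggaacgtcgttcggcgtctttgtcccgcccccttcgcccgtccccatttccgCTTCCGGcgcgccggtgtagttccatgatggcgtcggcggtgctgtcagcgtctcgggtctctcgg

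The windows of Cox7a1, Ndufv3 and Cox7a2 held no match to these motifs. Those of Ndufaf4 and Cox6a1 held 3 matches each, with NRF1 in both and ETS in Cox6a1. Promoter windows were found for 67 of the 79 members and for 59 of the 69 subunits, Cox6a2 and Uqcrb not among them. NRF1 was held by 6.78% of the 59 subunit windows (4 windows), by 1.64% of the 10489 windows of genes on the array and by 0.977% of all 27025 windows. In the same order, the short form was held by 23.7%, 12.3% and 8.06%, ETS by 23.7%, 14.2% and 9.12%, and YY1 by 5.08%, 1.2% and 0.699%. The MEF2 motif was held by 0 of the 59 subunit windows, by 2.09% of the windows of genes on the array and by 3.26% of all windows. A match describes the letters of a window and not a bound site.

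Nur77 had 1 member called, Uqcrb. It was at 0.36, 0.44, 0.93 and 0.42 on the Nur77 arrays, against -0.37, -0.53, 0.37 and 0.04 on the empty virus arrays. The groups overlapped narrowly, the change was 0.66 (SE 0.15, limma adjusted p = 0.0238), and the call was lost in 6 of 8 fits that left out 1 array. Over all probes 3.62% were higher and 3.29% lower, and with this control set shared, the Nur77 and MEF2D-VP16 values are not independent of each other.

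The median of the members with Nur77 was 0.12 against -0.01 over all probes, and all 14 ATP synthase subunits lay above 0, at 0.01 to 0.27, with none called. In the empty virus set used as control, only Atp5l (0.05) of these subunits lay above untreated cells. Against untreated cells Atp5o (-0.04) and Atp5g2 (-0.02) lay below 0 with Nur77. Against all 16 empty virus arrays Atp5g2 (-0.10), Atp5j2 (-0.01) and Atp5pb (-0.01) did. Cox6a2, at -1.30, -1.15, -1.25 and -0.49 on the Nur77 arrays, differed from the empty virus by -0.04 (SE 0.17). Ndufs1, a core complex I subunit, changed by 0.58 and missed the threshold (limma adjusted p = 0.0743). Against all 16 empty virus arrays 4 members were called higher, beside 4% of all probes higher and 3.39% lower: Ndufaf4 (0.64), Ndufs1 (0.62), Uqcrb (0.55) and Ndufab1 (0.43). On the metabolic and mitochondrial lists 4 genes were called: Pfkm (1.01) in glycolysis, Pdhb (0.55) of pyruvate dehydrogenase, Pprc1 (-0.58), and Lrpprc (-0.52), which stabilises mitochondrial mRNAs and is on the list of complex IV assembly factors. Against all 16 empty virus arrays Pfkm (0.64) and Pdhb (0.64) were called, and Pprc1 (-0.24, limma adjusted p = 0.633) and Lrpprc (-0.42, limma adjusted p = 0.146) were not.

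PMA and ionomycin moved 5 members in cells with the empty virus, all compared with unstimulated empty virus cells. Uqcrb rose 1.88-fold and the assembly factor Ndufaf1 fell 1.54-fold. Ndufaf4 was higher, and the complex I subunits Ndufv3 and Ndufs7 were lower. These 2 higher and 3 lower members stand beside 6.07% of all probes higher and 6.43% lower, and the member median was -0.06.

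Uqcrb ran from 0.40 to 1.53 (median 0.90) on the 8 stimulated arrays, against -0.36 to 0.65 (median -0.03) on the 12 unstimulated ones. The groups overlapped at their edges, and the change was 0.91 (SE 0.17, limma adjusted p = 0.00103). Its value differed between slide pairs: slides 13 and 14 gave 0.40 to 0.55 (mean 0.47), and slides 15 and 16 gave 1.26 to 1.53 (mean 1.38). The slide pairs of the stimulated HDAC7 DP cells differed too (mean 1.25 for slides 17 and 18, mean 0.65 for slides 19 and 20). Within slide series 14 the change was 0.99 (adjusted p = 0.0416) and within slide series 15 it was 0.83 (adjusted p = 0.115).

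Ndufaf1 ran from -0.83 to -0.29 (median -0.52) with stimulation, against -0.52 to 0.48 (median 0.16) without. The change was -0.62 (SE 0.10, limma adjusted p = 0.000210), with the groups overlapping. Ndufv3 ran from -0.34 to -0.02, against -0.06 to 0.59, a change of -0.45 (SE 0.08, limma adjusted p = 0.000339). Ndufaf4 changed by 0.40 (adjusted p = 0.0256) and Ndufs7, an iron-sulphur subunit of complex I, by -0.40 (adjusted p = 0.0211). Leaving out the 5th, 6th, 7th or 8th stimulated array ended the Ndufaf4 call, and the 6th or 7th the Ndufs7 call, at adjusted p up to 0.0684.

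Sdha, the flavoprotein subunit of succinate dehydrogenase, changed by -0.60 (SE 0.22, limma adjusted p = 0.0799). Ndufb3, of complex I, changed by -0.68 (SE 0.23, limma adjusted p = 0.0552). Against untreated cells instead of the empty virus, 10 members were called, 4 higher and 6 lower, beside 7.62% of all probes higher and 8.48% lower. Regulators of mitochondrial transcription changed in both directions: Gabpb1 was higher (0.42), and Gabpa (-0.81) and Tfam (-0.77) were lower. Of 13 glycolysis genes 1 was higher and 4 were lower, among them the hexokinases Hk2 (-1.20) and Hk1 (-0.70) and the transporter Slc2a1 (-1.13).

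HDAC7 DP left no member called when stimulated HDAC7 DP cells were set against stimulated empty virus cells by limma, with 7 of 79 at an unadjusted p under 0.05. By the adjusted p, 0.522% of all probes were called higher and 1.12% lower. The share of all probes at an unadjusted p under 0.05 is not given, so the 7 members have no value beside them. The largest values were -0.82 for Cox6a2 (SE 0.33, limma adjusted p = 0.296), 0.44 for Ndufs4 and 0.38 for Sdha. Uqcrb ran from 0.52 to 1.47 (median 0.99) with HDAC7 DP, against 0.40 to 1.53 (median 0.90) with the empty virus, and differed by 0.03 (SE 0.20). Against untreated cells 10 members of the stimulated HDAC7 DP cells were called, 6 higher and 4 lower, beside 8.96% of all probes higher and 10.7% lower. They included Uqcrb (0.95), Ndufaf4 (0.63), Ndufv3 (-0.46) and Ndufaf1 (-0.48), the values of stimulated empty virus cells being 0.93, 0.40, -0.24 and -0.53. Among the glycolysis genes Hk2 (1.11) and Slc2a1 (0.97) were higher with HDAC7 DP than in stimulated empty virus cells. In those cells stimulation had changed them by -1.20 and -1.13. The stimulated empty virus arrays enter both comparisons with opposite sign, so these values are not independent of each other.

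HDAC7-VP16, without stimulation, had 2 members called higher and 1 lower against the 12-array empty virus set, where 1.42% of all probes were higher and 1.29% lower. Ndufaf4 ran from -0.01 to 1.22 (median 0.42) with HDAC7-VP16, against -0.48 to 0.50 (median -0.13) with the empty virus. Its change was 0.49 (SE 0.11, limma adjusted p = 0.0186), with overlapping groups. Ndufv3 ran from -0.65 to 0.36 (median -0.35), against -0.06 to 0.59 (median 0.16), and changed by -0.51 (SE 0.10, limma adjusted p = 0.00606).

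Ndufab1, the mitochondrial acyl carrier protein and a complex I subunit, changed by 0.31 (SE 0.08, limma adjusted p = 0.0398), and lost its call in 12 of 22 fits that left out 1 array. Within slide series 15 the changes were 0.61 for Ndufaf4 and -0.60 for Ndufv3, both called, and within slide series 14 they were 0.31 and -0.33, neither called. The first HDAC7-VP16 array carries that name in its title but the empty virus in its source name. Without it 1 member was higher and 1 lower, Ndufaf4 and Ndufv3. Cox7a1 had the largest value, -0.87 (SE 0.43), and was not called (limma adjusted p = 0.414). Of 13 glycolysis genes 3 were lower, Slc2a1 (-1.31), Pfkl (-0.70) and Pfkp (-0.42).

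The empty virus itself was set against untreated cells. In the 12-array set no member was called by limma, beside 0.626% of all probes called higher and 1.35% lower. At an unadjusted p under 0.05 there were 7 members, for which the share of all probes is not given. In the 4-array set 3 members were lower, beside 2.71% of all probes higher and 3.01% lower: Cox6a2 at -1.18 to -0.84 (change -1.01, SE 0.09, limma adjusted p = 0.00123), Ndufv3 (-0.49, adjusted p = 0.0126) and Cox7a1 (-0.36, adjusted p = 0.0333). The Cox7a1 call was lost without any 1 of the 4 arrays. These are 3 of the 5 members called higher with MEF2D-VP16, whose contrast uses the same arrays, while the other two, Uqcrb (-0.12) and Ndufaf1 (-0.16), were not called in the empty virus set. In the 12-array set the same genes were at 0.28, 0.21 and 0.56, not called, and the difference between the 2 sets was not tested.

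In mhc -/- thymocytes, members of all complexes and assembly factors rose by small amounts, and 6 members fell. Against DO11.10 thymocytes 38 of 79 were called higher and 6 lower, beside 15.8% of all probes higher and 20.5% lower. The median change was 0.21, while that of all probes was 0.01. By complex, 16 of 30 subunits of complex I were higher and 1 lower, 9 of 16 of complex IV higher and 1 lower, 6 of 14 of the ATP synthase higher, 2 of 5 of complex III higher and 1 lower, and 1 of 4 of complex II in each direction. Of the 9 assembly factors 4 were higher and 2 lower. Thymocytes are a mixture, and in bulk RNA fewer cells of a type cannot be told apart from less RNA per cell.

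The median of the 79 genes lay above 0 on all 6 arrays, from 0.11 to 0.27, with 53 to 63 members above 0 on each. Ndufv3 ran from 0.38 to 0.73 (median 0.46), with a change of 0.51 (SE 0.06, limma adjusted p = 0.000277), and was above 0 on 6 of 6 arrays. Sdhaf4, an assembly factor of complex II, ran from 0.21 to 0.59 (0.46, SE 0.06). The iron-sulphur subunit Ndufs7 averaged 0.43, Ndufa9, an accessory subunit that binds a nucleotide, 0.43, and Cox7a2l, which joins complexes III and IV, 0.41.

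Among core subunits, Uqcrfs1, the Rieske iron-sulphur protein of complex III, was higher by 0.38 (SE 0.05, limma adjusted p = 0.000490). Ndufs1 (-0.03), Sdha (0.14), Cox5a (0.01), Atp5a1 (0.03) and Atp5b (0.21), the last 2 being the alpha and beta subunits of the ATP synthase, were not called. Among the complex IV isoforms, both general and muscle types were called higher. Cox4i1 (0.20), Cox6b1 (0.26), Cox7a2 (0.19) and Cox8a (0.32) were called, as were Cox6a2 (0.33) and Cox7a1 (0.33), while Cox6a1 (0.23) and Cox4i2 (-0.01) were not. Leaving out 1 array ended the calls of Cox7a1 and Cox8a in 4 of 6 fits each, of Cox4i1 in 3, of Cox6a2 in 2 and of Cox7a2 in 1, at adjusted p up to 0.0790.

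The lower members were Cox8b, Sdhb, Ndufaf7, Ndufv1, Ndufaf4 and Uqcrb. Cox8b, the muscle form of subunit VIII, which brown fat also expresses in mice, ran from -1.56 to 0.02 (median -0.80), with a change of -0.79 (SE 0.19, limma adjusted p = 0.0138) and 5 of 6 arrays below 0. Sdhb, the iron-sulphur subunit of succinate dehydrogenase, ran from -0.97 to -0.10 (median -0.71), below 0 on every array, with a change of -0.64 (SE 0.12, limma adjusted p = 0.00401). Ndufv1, the core complex I subunit that binds NADH, ran from -0.71 to -0.36 and changed by -0.51 (SE 0.06, limma adjusted p = 0.000547).

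Ndufaf7, a methyltransferase that acts in complex I assembly, ran from -0.66 to -0.32 and changed by -0.55 (SE 0.05, limma adjusted p = 0.000118). Ndufaf4 changed by -0.38 (SE 0.07) and Uqcrb by -0.27 (SE 0.08, adjusted p = 0.0396). Uqcrb differed between slides, at -0.42 to -0.36 on slides 1 to 4 and -0.13 and 0.12 on slides 17 and 18. On slides 1 to 4 alone 35 members were higher and 10 lower, beside 14.7% and 20.4% of all probes.

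Other mitochondrial lists did not move in one direction. Of 70 mitochondrial ribosomal proteins 33 were higher and 15 lower, with a median of 0.18, and the lower ones included Mrpl9 (-2.02), Mrps11 (-1.98) and Mrps2 (-1.66). Of 18 import and folding genes 3 were higher and 5 lower, with the prohibitin gene Phb at -1.67 and Timm44, of the import motor, at -1.43. Of 15 genes of pyruvate dehydrogenase and the citric acid cycle 5 were higher and 4 lower, among them Sucla2 (0.71), Mdh2 (0.55) and Idh3b (-1.52). Of 13 glycolysis genes 6 were higher and 2 lower, with Gapdh at -2.11, Hk2 at 0.74 and the kinase Pgk1 at 0.28. Of 13 biogenesis regulators 2 were higher and 3 lower, with the mitochondrial DNA polymerase gene Polg at -0.67, Tfam at 0.48 and Gabpa at 0.42. Atpif1, which encodes the inhibitor of the ATP synthase, was higher (0.42). Among 66 symbols starting with Rpl or Rps, a list that also holds ribosomal S6 kinases, 7 were higher and 17 lower. Cell type markers moved as well: of 7 T cell markers 1 was higher and 5 lower (Cd2 -2.90), of 10 thymic epithelium markers 2 were higher and 6 lower (Prss16 -2.60), of 6 B cell markers 1 was higher and 3 lower, of 6 myeloid markers 2 were higher (S100a8 1.05, S100a9 0.86), and of 2 erythroid markers Alas2 was lower (-2.04). Their part in the values of the members was not tested.

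**Figure D3:**
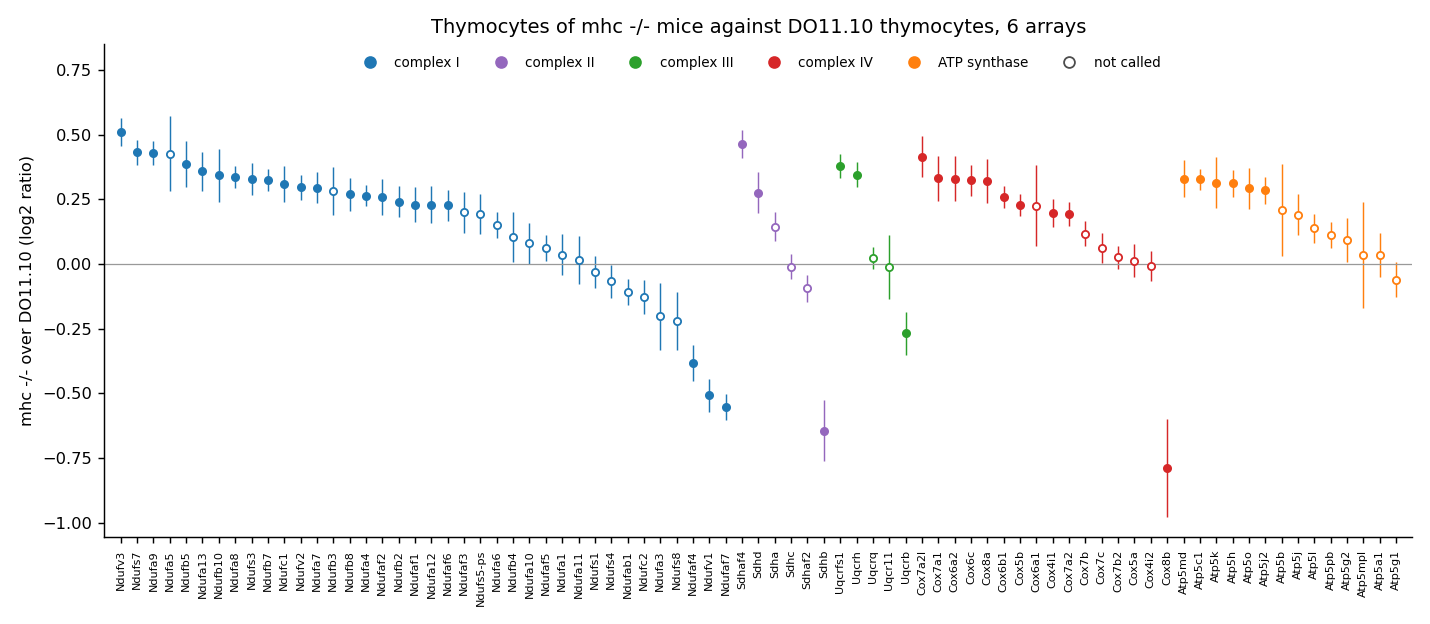
The 79 genes are grouped by complex along the horizontal axis, and the vertical axis is the log2 ratio of mhc -/- over DO11.10 thymocytes, with the standard error of the limma fit as bars. Filled points were called. Most points lie between 0 and 0.51, and Cox8b (-0.79), Sdhb (-0.64), Ndufaf7 (-0.55) and Ndufv1 (-0.51) lie lowest.

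After injection of antigenic peptide few members were called at any time, and the member median stayed near that of all probes. At 3 h 1 member was higher and 1 lower, beside 1.49% of all probes higher and 1.21% lower. At 6 h 4 were higher and 1 lower, beside 2.03% and 2.54%. At 12 h 2 were higher, beside 1.66% of all probes higher and 1.72% lower. The member medians were 0.05, 0.09 and 0.09 at 3 h, 6 h and 12 h, with medians of -0.00, 0.01 and 0.01 over all probes.

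Cox8b was the member called lower at 3 h and at 6 h. It ran from -0.79 to -0.11 (median -0.52) at 3 h, -0.79 to -0.31 (median -0.48) at 6 h and -0.74 to 0.13 (median -0.52) at 12 h, so that 17 of 18 arrays were below 0. The changes were -0.51 (SE 0.09, limma adjusted p = 0.0329), -0.51 (SE 0.07, limma adjusted p = 0.00596) and -0.46 (SE 0.12, limma adjusted p = 0.0802), the last not called. The 3 h call was lost in 5 of the 6 fits that left out 1 array. Of 9 measured genes of fat, a list written after the values were seen, 1 was lower at 3 h (Adipoq, -0.31), 2 at 6 h (Ucp1, -0.62, and Cidea, -0.52) and 0 at 12 h (Cidea -0.51 and Adipoq -0.30, not called), and none was higher. Of 28 genes of striated muscle, on the other list written afterwards, 1 was higher at 3 h (Tnnt2, 0.65), 2 at 6 h (Eno3, 0.71, and Tnnt2, 0.67) and 1 at 12 h (Eno3, 1.29), and none was lower. In mhc -/- thymocytes Ucp1 (-0.59), Retn (-0.57) and Adipoq (-0.32) were lower and Pparg (0.26) higher. Of the 10 thymic epithelium markers 6 were lower at 3 h, 7 at 6 h and 3 at 12 h (Prss16 at -1.98, -1.84 and -1.96). Other cell type lists moved too. Of 2 erythroid markers Alas2 was lower at 3 h (-1.32) and 6 h (-0.81). Of 7 T cell markers Cd2 was higher at 3 h (0.38), Thy1 lower at 6 h (-0.60) and 12 h (-0.75), and Lat lower at 12 h (-1.06). At 6 h the myeloid marker Cd68 (-0.39) and the B cell marker Cd79a (-0.31) were lower. No myeloid marker was called at 12 h, where the list median was 0.74. The part of these cell types in the Cox8b values was not tested.

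Ndufaf4 changed with time. It ran from -0.01 to 0.66 (median 0.61) at 3 h, 0.15 to 0.79 (median 0.27) at 6 h and -0.44 to -0.10 (median -0.19) at 12 h. The mean changes were 0.51 (limma adjusted p = 0.0415), 0.33 (limma adjusted p = 0.0466) and -0.23 (limma adjusted p = 0.120, not called), and no array of 12 h reached the range of 6 h. Leaving out 1 array ended the 3 h call in 5 of 6 fits and the 6 h call in 6 of 6. The moderated F test over the 3 times called Ndufaf4 (limma adjusted p = 0.00374) and Ndufv1 (limma adjusted p = 0.0250) among the 79, beside 4.09% of all probes. The Ndufv1 call was lost in 4 of 18 fits that left out 1 array, each a 12 h array, and that of Ndufaf4 in 0. The difference of 12 h minus 6 h was -0.56 (SE 0.12) for Ndufaf4 and -0.81 (SE 0.21) for Ndufv1. By that contrast 1 further member was called, the assembly factor Sdhaf4 at 0.45 (SE 0.12, limma adjusted p = 0.0450), beside 1.02% of all probes higher and 2.16% lower. For 6 h minus 3 h no member was called by limma, where 0.0121% of all probes were, all higher (0% lower).

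Ndufv1 at 12 h split by slides. It was at -1.25, -1.12, -1.24 and -1.10 on 4 arrays, and at -0.32 and 0.18 on the 2 arrays of slide series 13. The mean of all 6 was -0.81 (SE 0.22, limma adjusted p = 0.0926, not called). At 3 h it ran from -0.09 to 0.46 and at 6 h from -0.16 to 0.17. Sdhb at 12 h ran from -0.70 to -0.55 on the 4 arrays and was at 0.24 and -0.50 on series 13, so 1 array stood apart.

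Without slide series 13, 31 members were called at 12 h, 23 higher and 8 lower, beside 8.47% of all probes higher and 16.2% lower, and the member median was 0.15. All 6 arrays of 3 h and 2 arrays each of 6 h and 12 h belong to slide series 13, so 3 h has no value without that series. The lower ones at 12 h were Ndufv1 (-1.18), Ndufc2 (-0.64), Sdhb (-0.61), Cox8b (-0.60), Ndufaf7 (-0.50), Ndufs8 (-0.39), Atp5b (-0.28) and Ndufa3 (-0.24). The higher ones were led by Ndufs3 (0.65), Ndufa7 (0.60), Cox6c (0.59), Atp5k (0.57) and Atp5j2 (0.52). At 6 h 7 members were higher and 1 lower without that series, beside 4.45% of all probes higher and 7.13% lower. With slide series 13 as a block, the F test called the same number of members, 2, and with slide series 13 alone it called 0 by limma.

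Over all 6 arrays of each time, 5 further members were called higher. At 6 h Atp5k, subunit e of the ATP synthase, ran from 0.06 to 0.71 and changed by 0.42 (SE 0.06, limma adjusted p = 0.00596), Ndufb7 by 0.27 and Cox7b by 0.25. At 12 h Ndufa7 ran from 0.08 to 0.91 and changed by 0.49 (SE 0.08, limma adjusted p = 0.0379), and Sdhc, a membrane anchor of succinate dehydrogenase, changed by 0.33 (adjusted p = 0.0474). The Atp5k call was kept in all 6 fits that left out 1 array, while those of Ndufb7 and Cox7b were lost in 6 and 5 of them, and those of Ndufa7 and Sdhc in 4 each. Leaving out the 1st array raised the 12 h count of members to 12, and leaving out others lowered it to 0.

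**Figure D4:**
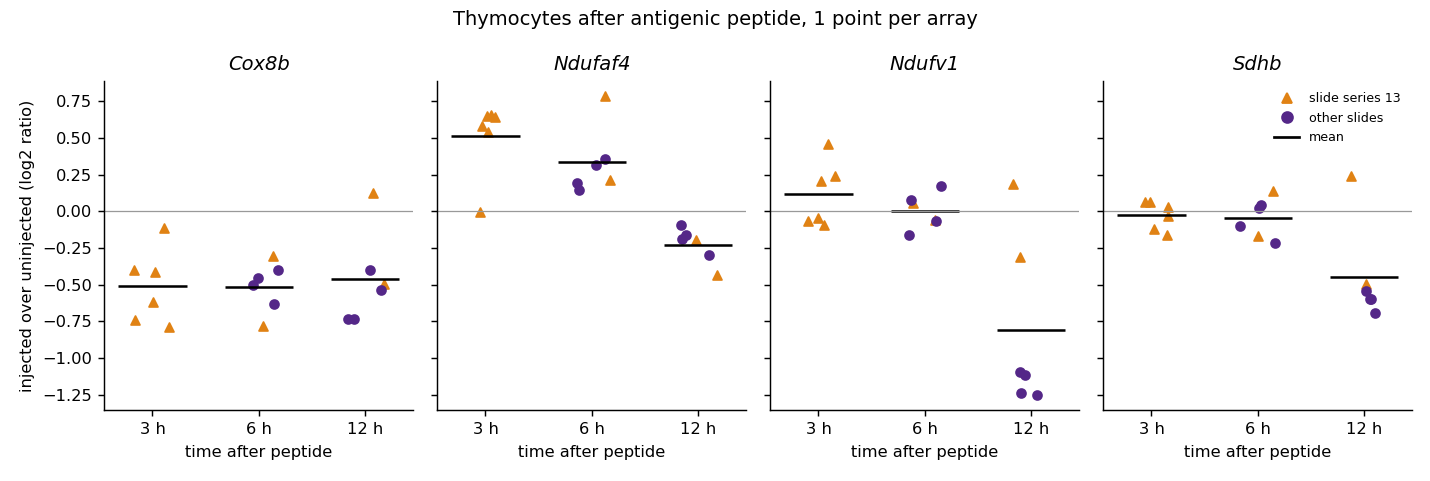
Each point is 1 array, the horizontal axis is the time after peptide in hours, and the vertical axis is the log2 ratio of injected over uninjected thymocytes, with group means as bars. Triangles mark slide series 13. Cox8b is below 0 on 17 of 18 arrays, Ndufaf4 changes sign by 12 h, Ndufv1 at 12 h differs between slide sets, and 1 array of Sdhb at 12 h (0.24) stands apart.

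The member medians also differed with dye orientation, as a description without a test. In each of the 11 groups the mean of the array medians of the 79 genes was lower with the infected, stimulated, injected or mhc -/- RNA in Cy5 than with it in Cy3. With HDAC7-VP16 the means were -0.22 in Cy5 and 0.26 in Cy3, and in the 12-array empty virus set they were -0.08 and 0.18. The gap was smallest with MEF2D-VP16 (0.03 and 0.04), and in mhc -/- thymocytes both orientations were above 0 (0.13 and 0.22). Each group holds both orientations in equal number and dye was a term of the fit.

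**Figure D5:**
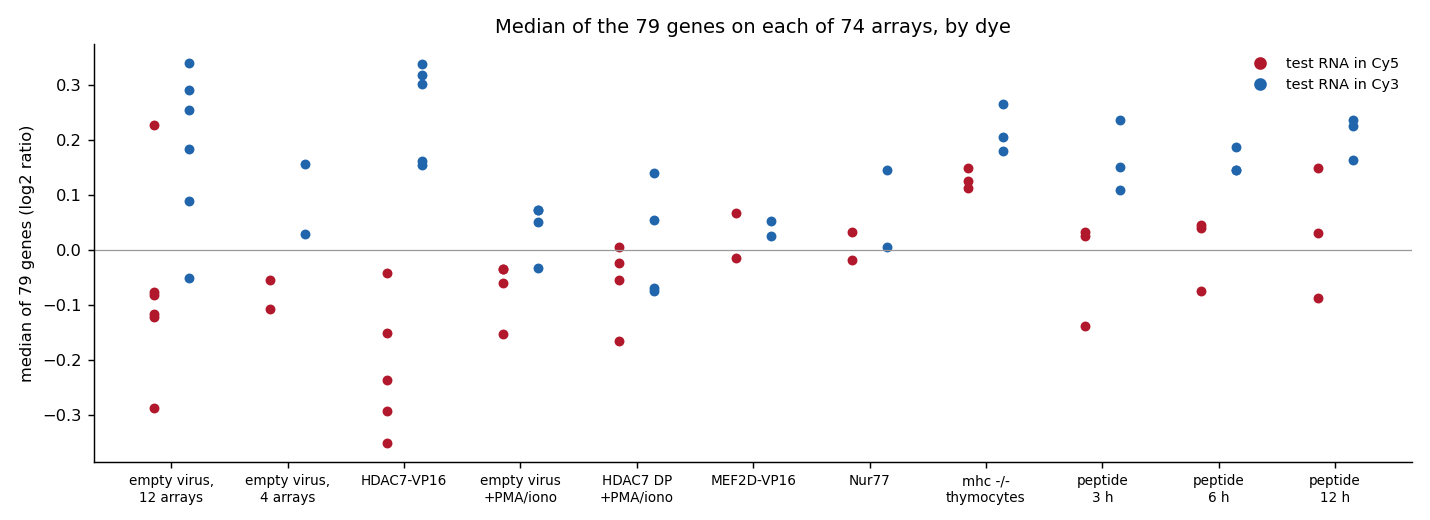
Each point is the median log2 ratio of the 79 genes on 1 array, by group along the horizontal axis and coloured by the dye of the test RNA. Medians run from -0.35 to 0.34, and the 6 arrays of mhc -/- thymocytes lie above 0 in both dyes.

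A second probe existed for 4 members. Its log2 ratio over the 74 arrays followed the first probe only loosely, with Pearson's r of 0.02 for Ndufa3, 0.03 for Ndufc2, 0.36 for Ndufs1 and -0.07 for Uqcrq, as a description over arrays that share controls. For Uqcrq the probes disagreed in mhc -/- thymocytes, at 0.02 for the first and -0.36 for the second (limma adjusted p = 0.00106). The second Uqcrq probe was also called in the 12-array empty virus set (-0.35), after stimulation (0.30) and with MEF2D-VP16 (-0.37). The F test over the peptide times called it too (limma adjusted p = 0.00558), while the first probe was called in none of these. For Ndufa3 in mhc -/- thymocytes the second probe was called higher (0.15), with the first at -0.20 and not called. Values of these 4 genes are therefore less certain. The other 75 members rest on a single probe.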

How the data were processed

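Per the labels' protocols, total RNA was reverse transcribed with aminoallyl nucleotides and coupled to Cy3 or Cy5. The authors deposited 1 table of log2 ratios for 74 arrays and 16463 probes with no missing value. The log base is assumed to be 2, while no label or header states the scanner, background correction, normalization or ratio direction. Spot intensities were not used, so signal over background was not measured, and the number of arrays limits the precision.

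Symbols came from the platform annotation. Each array was centred on its median, and limma 3.58.1 (R 4.3.3) was fitted per comparison on all probes with the dye orientation as a term (lmFit, eBayes), with Benjamini-Hochberg adjustment over all probes and a threshold of 0.05. MEF2D-VP16 and Nur77 were compared with the 4-array empty virus set, HDAC7-VP16 and stimulated empty virus with the 12-array set, stimulated HDAC7 DP with stimulated empty virus, and the others with 0. The fits were checked on simulated data. Members and gene lists were chosen with earlier results of these data known. Named members are the complex IV isoforms, the core subunits, the 5 highest and 5 lowest called members per comparison, and the 3 largest values where none was called; of each other list at most 3 called genes per comparison are named, taken from the largest changes. Ndufb3, Uqcrb in mhc -/- thymocytes, genes of the 2 lists written afterwards and genes named from fits without slide series 13 or against other controls were chosen after their values were seen. Alternatives were centring, dye term, control set, one fit of all groups, a probe filter, slide series and leaving out each array.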

Additional observations from a re-analysis of the deposited data

Results flagged for a closer look

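On 6 occasions 1 array stood apart from its group by Dixon's test, among 54 sets of 4 to 10 values that were checked, where chance gives about 1 in 20. These were Ndufv3 at -0.016 on the 6th array of stimulated empty virus cells, Ndufaf6 at -0.34 on the 4th MEF2D-VP16 array, Uqcrb at 0.93 on the 3rd Nur77 array, Sdhaf4 at 0.21 on the 2nd mhc -/- array, Ndufaf4 at -0.008 on the 1st array of 3 h after peptide, and Ndufaf4 at 0.79 on the 2nd array of 6 h. Their cause was not tested.

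Between 6 h and 12 h after peptide 3 members differed by limma's test of the difference itself: Ndufaf4 by -0.56, Ndufv1 by -0.81 and Sdhaf4 by 0.45 (12 h minus 6 h). At 12 h Ndufv1 averaged -1.18 on 4 arrays and -0.07 on the 2 arrays of slide series 13.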

How the results depend on the processing

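The labels give slide numbers and no replicate numbers, and between groups compared with each other slide labels recur only among the peptide arrays, where 2 arrays each of 6 h and 12 h carry slide labels of 3 h. With the slide label as a random replicate block, chosen after seeing the data, the F test over the times called 2 members, as without it. Slide series 14 and 15, which are shared, were fitted as a block: 0 members were called in the 12-array empty virus set, 3 with HDAC7-VP16, 5 with stimulated empty virus and 0 with HDAC7 DP, the same numbers as reported. Counts of called members kept within 1.5 times of the reported count under every alternative run except those given here. Without the dye term 1 member was called in the 4-array empty virus set, 1 with HDAC7-VP16, 5 with MEF2D-VP16, 0 with Nur77, 1 at 6 h and 0 at 12 h. With all groups in 1 fit there were 1 in the 12-array empty virus set, 1 with HDAC7 DP, 23 in mhc -/- thymocytes, 2 at 6 h and 11 at 12 h. Against untreated cells there were 1 with HDAC7-VP16, 10 with stimulated empty virus, 10 with HDAC7 DP and 5 with Nur77. Those with Nur77 were Ndufaf4 (0.72) and Uqcrb (0.53), higher, and Cox6a2 (-1.05), Cox7a1 (-0.65) and Ndufv3 (-0.56), lower. The lower ones were also called lower in the 4-array empty virus set. For the counts in this paragraph, the share of all probes is given only where it stands in the text above. Against all 16 empty virus arrays there were 0 with HDAC7-VP16, 5 with MEF2D-VP16 and 4 with Nur77, and the member medians were 0.017 with MEF2D-VP16 and 0.029 with Nur77; against untreated cells that of MEF2D-VP16 was 0.049. Slide series 14 alone gave 0 with HDAC7-VP16 and 3 with stimulated empty virus, slide series 15 alone gave 1 with stimulated empty virus, and slides 11 and 12 or 21 and 22 alone gave 4 each with MEF2D-VP16. At 12 h no centring gave 1 and a probe filter 1. Leaving out slide series 13 gave 8 at 6 h and 31 at 12 h, and that series alone gave 0 for the F test. Against untreated cells Uqcrfs1 was at 0.25 in stimulated HDAC7 DP cells and at 0.27 in stimulated empty virus cells. The reported -0.02 is the difference between these cells, so the fit against untreated cells asks another question. The causes of the other shifts were not tested.

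Leaving out 1 array gave 0 to 1 members in the 12-array and 1 to 4 in the 4-array empty virus set, 2 to 4 with HDAC7-VP16, 3 to 7 with stimulated empty virus, 0 with HDAC7 DP, 5 to 8 with MEF2D-VP16 (median 0.049 to 0.14), 0 to 2 with Nur77, 34 to 40 in mhc -/- thymocytes, 0 to 1 at 3 h, 2 to 5 at 6 h, 0 to 12 at 12 h and 1 to 5 for the F test. Of calls of named members, 342 were kept and 100 lost in these fits, and 290 kept and 70 lost under the other settings. The number of arrays limits the precision, and signal over background was not analysed here.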
